A study of Homo sapiens with 8 samples.

Results

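The integrin and laminin chains of 2 Ewing sarcoma cell lines were measured with and without knockdown of an enhancer. All genes named as an integrin α chain, an integrin β chain or a laminin α, β or γ chain were taken, 38 of the 60332 genes in the expression table. They comprise 18 integrin α, 8 integrin β, 5 laminin α, 4 laminin β and 3 laminin γ genes. The rule uses gene names, and where a symbol had several rows the one with the highest mean was kept. Of the 38 genes, 21 had a mean of at least 1 FPKM (reads of a gene corrected for its length and for the depth of the library) over the libraries and could be tested, and 17 were below this level.

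Integrins are receptors at the cell surface made of one α and one β chain, which anchor cells to the matrix or to other cells and signal in both directions across the membrane. The α chain largely sets the ligand: α1, α2, α10 and α11 bind collagens, α3, α6 and α7 bind laminins, and α5, α8, αV and αIIb bind ligands with the RGD motif such as fibronectin and vitronectin. Laminins are cross-shaped trimers of one α, one β and one γ chain, secreted into basement membranes. The α chain carries the main binding sites for integrins, and trimers form inside the cell from βγ pairs that an α chain then joins.

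The RNA-seq data cover the lines RD-ES and SK-N-MC, with 2 control and 2 eKD2 libraries of each, 8 in all. Cells of eKD2 carried dCas9-KRAB (a Cas9 that does not cut, fused to a repressor domain) with a guide RNA next to the GGAA repeat in the enhancer of LOXHD1. Controls carried an empty dCas9-KRAB virus according to the labels, whereas the paper describes them as parental cells. Virus was used at a multiplicity of infection of 10, puromycin at 1 µg/ml was given for 3 days, and cells were used within 5 passages. The paper describes the eKD cells as polyclonal pools, and both lines were grown with serum, which itself contains matrix proteins. In these cells the fusion protein EWS-FLI1 binds GGAA motifs. The labels do not say whether the 2 libraries of a group come from separate infections, so p-values measure the spread between these libraries.

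For LOXHD1, the knockdown target, the RD-ES control libraries gave 21.4 and 21.2 FPKM and those of eKD2 gave 1.04 and 1.02 FPKM. The SK-N-MC values were 159 and 169 FPKM without and 11.0 and 12.0 FPKM with knockdown. Each of the 6 Ewing sarcoma markers, among them CD99 and NKX2-2, was above 0 in all libraries, with summed levels of 787 to 1436 FPKM, and 3 endothelial markers summed to 0.234 to 0.892 FPKM. Depth was estimated from the steps of low FPKM values at 6.72 M reads (M, mega) in the shallowest library (RD-ES eKD2 replicate 1) and 27.3 M in the deepest (SK-N-MC control replicate 1). These estimates are rough. Across genes (not independent of each other) the 2 libraries of a group correlated with r of 0.937 to 0.945.

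The upstream sequences of the 3 genes that differed most between the lines and of LAMB2, the member with the most GGAA in this window, are shown because GGAA is the motif bound by EWS-FLI1. Each is the 250 bases before the RefSeq start (GRCh38.p14), 5′ to 3′ on the strand of the gene, with GGAA and its reverse complement TTCC in capitals. LAMB1 is on the minus strand at chr7:108003162-108003411, LAMA5 on the minus strand at chr20:62367313-62367562, ITGA1 on the plus strand at chr5:52787666-52787915 and LAMB2 on the minus strand at chr3:49133051-49133300.
LAMB1: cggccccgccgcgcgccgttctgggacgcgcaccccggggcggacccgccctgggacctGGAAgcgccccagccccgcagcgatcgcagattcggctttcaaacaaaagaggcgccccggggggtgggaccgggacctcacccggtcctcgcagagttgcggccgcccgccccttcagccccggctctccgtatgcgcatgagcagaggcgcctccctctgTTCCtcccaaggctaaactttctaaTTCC
LAMA5: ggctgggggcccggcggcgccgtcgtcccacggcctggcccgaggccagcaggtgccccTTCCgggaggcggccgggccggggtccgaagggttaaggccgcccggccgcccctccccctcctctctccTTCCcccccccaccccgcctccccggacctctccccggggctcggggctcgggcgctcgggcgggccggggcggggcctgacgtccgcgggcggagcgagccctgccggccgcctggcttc
ITGA1: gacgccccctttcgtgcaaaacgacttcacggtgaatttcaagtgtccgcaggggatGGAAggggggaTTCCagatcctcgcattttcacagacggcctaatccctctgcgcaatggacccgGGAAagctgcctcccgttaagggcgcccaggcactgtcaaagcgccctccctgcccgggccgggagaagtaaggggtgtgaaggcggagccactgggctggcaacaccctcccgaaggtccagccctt
LAMB2: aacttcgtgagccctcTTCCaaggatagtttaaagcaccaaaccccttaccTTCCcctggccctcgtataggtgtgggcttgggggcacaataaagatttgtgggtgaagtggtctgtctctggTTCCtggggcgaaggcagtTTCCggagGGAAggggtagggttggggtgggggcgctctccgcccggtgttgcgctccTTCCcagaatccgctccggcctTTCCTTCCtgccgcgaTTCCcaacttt
LAMB1 and ITGA1 hold 3 matches each, LAMA5 holds 2 and LAMB2 holds 9. Over all 35116 starts in the RefSeq table the median was 3 matches, 92.7% held at least 1, 55.1% at least 3 and 0.655% at least 9. LAMB2 was picked for its count, so its high place was set beforehand. Of the 38 genes, 26 had a start in the table, with 33 starts between them. A pair of GGAA in direct succession (GGAAGGAA, either strand) stood upstream of LAMB2 and ITGA10 among these, against 3.06% of all starts. These matches are letters in a window, and no binding was measured here.

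In RD-ES control cells the most abundant integrin chains were β1, β5, α1, α5, αE and αV. ITGB1, the β chain that pairs with most α chains, was at 87.4 ± 3.94 FPKM (SD, n = 2), and ITGB5, which pairs with αV, at 51.1 ± 1.44 FPKM. ITGA1 and ITGA5 followed at 37.2 ± 4.47 and 37.1 ± 1.55 FPKM, then ITGAE at 34.0 ± 3.65 and ITGAV at 14.7 ± 1.19 FPKM. ITGA1, ITGA5 and ITGAE lay within 1 SD of each other, so their order is not resolved. The laminin chains led with LAMC1 at 49.5 ± 5.00 and LAMB1 at 49.1 ± 0.490 FPKM, which also did not differ beyond their spread, then LAMB2 at 24.6 ± 0.422 and LAMA5 at 15.8 ± 0.349 FPKM.

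In SK-N-MC control cells ITGB5 was at 93.7 ± 4.15 FPKM (SD, n = 2) and ITGB1 at 79.7 ± 8.06 FPKM. ITGA5, the fibronectin receptor chain, was at 60.0 ± 7.27 FPKM, ITGAV at 30.7 ± 3.54, ITGAE at 25.5 ± 0.231 and ITGA7 at 11.1 ± 1.77 FPKM. LAMB1 stood above all other members at 234 ± 14.6 FPKM. LAMC1 followed at 62.2 ± 5.86 FPKM, LAMB2 at 23.5 ± 3.75 and LAMB3 at 4.10 ± 1.13 FPKM, and no laminin α chain was among the first 4. Counting a chain as expressed at a group mean of at least 1 FPKM, 19 of the 38 were expressed in RD-ES control and 17 in SK-N-MC control, with 8 integrin α and 4 integrin β chains in each.

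**Figure D1:**
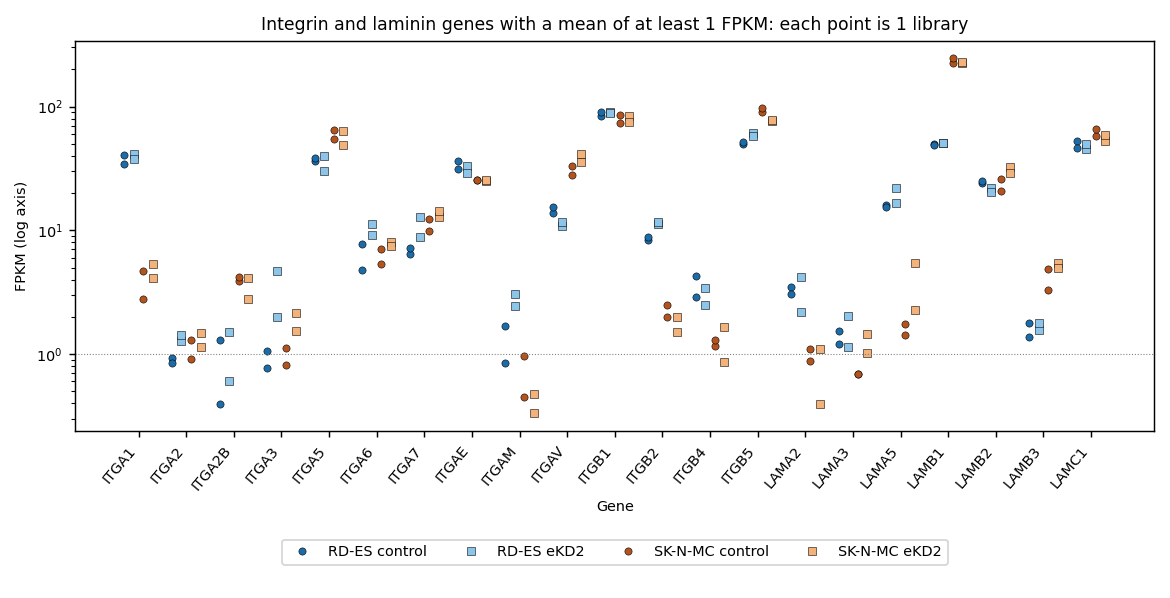
FPKM (log axis) of the 21 tested integrin and laminin genes, with 1 point per library for RD-ES control, RD-ES eKD2, SK-N-MC control and SK-N-MC eKD2; the dotted line marks 1 FPKM. LAMB1 lies near 50 FPKM in the RD-ES libraries and at 224 FPKM or above in the SK-N-MC libraries, whereas ITGA1 and LAMA5 lie higher in RD-ES.

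The control libraries of both lines were then compared. In such bulk samples fewer cells with a message and less message per cell cannot be told apart. Of the 21 tested members, 13 differed at an adjusted p under 0.05 (limma), 7 higher and 6 lower in SK-N-MC. Over all 15175 tested genes 57.8% differed, 31.4% higher and 26.4% lower, so the share among the members is near that of all genes. The median log2 difference (SK-N-MC minus RD-ES) was -0.0046 over the members and 0.065 over all genes. Scaling each library to the same median moved the latter to -0.073 and gave 6 members higher and 7 lower.

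Among the laminins, 2 β chains were higher and 2 α chains lower in SK-N-MC. LAMB1, the β1 chain found in many laminins, was at 49.5 and 48.8 FPKM in RD-ES control and at 224 and 245 FPKM in SK-N-MC control. The eKD2 libraries showed the same gap, with 50.6 and 50.7 FPKM in RD-ES and 224 and 231 FPKM in SK-N-MC, so that the lines did not overlap. The log2 difference between the control groups was 2.23 (standard error 0.0642, limma adjusted p = 6.2e-06), a 4.69-fold higher value in SK-N-MC on the log2(FPKM + 1) scale, which all differences below also use. LAMB1 spans bases 107564244 to 107643658 of chromosome 7 (GRCh37, minus strand) and shares 300 exon bases with DLD on the other strand. DLD was at 72.6 to 106 FPKM over the libraries and not higher in SK-N-MC. The libraries do not mark strand, so reads in shared bases cannot be assigned from strand.

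LAMA5, the α5 chain of laminins in many mature basement membranes, went the other way. It was at 16.0 and 15.5 FPKM in RD-ES control and at 1.44 and 1.76 FPKM in SK-N-MC control, a log2 difference of -2.69 (standard error 0.316, limma adjusted p = 7.4e-04). Its 244 exon bases shared with ADRM1, on chromosome 20, lie on the other strand. ADRM1 was at 123 to 148 FPKM in RD-ES and 52.3 to 63.6 FPKM in SK-N-MC, and its part in the LAMA5 value was not tested.

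LAMA2, the α2 chain best known from muscle basement membrane, was at 3.47 and 3.04 FPKM in RD-ES control and at 1.09 and 0.878 FPKM in SK-N-MC control (log2 difference -1.10, limma adjusted p = 0.022). LAMB3, a chain of the epithelial laminin-332, was at 1.36 and 1.78 FPKM in RD-ES control and higher, at 4.90 and 3.30 FPKM, in SK-N-MC control (log2 difference 0.97, limma adjusted p = 0.0059). The groups did not overlap for either gene. Their calls already make this likely, and the share of all genes without overlap between the lines was not counted. LAMC1, the γ1 chain shared by most laminins, was at 53.0 and 46.0 FPKM in RD-ES and 58.1 and 66.4 FPKM in SK-N-MC control, which did not pass the threshold (log2 difference 0.32, limma adjusted p = 0.056). LAMB2 was at 24.3 and 24.9 FPKM against 26.1 and 20.8 FPKM, and these values overlapped (log2 difference -0.07, 95% interval -0.38 to 0.23).

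Among the integrins, ITGA1, a collagen receptor chain, differed most. It was at 40.3 and 34.0 FPKM in RD-ES control and 4.66 and 2.76 FPKM in SK-N-MC control, with a log2 difference of -3.04 (standard error 0.218, limma adjusted p = 1.2e-04), which is 8.24-fold lower in SK-N-MC. The gene runs from 52083750 to 52255039 of chromosome 5 (GRCh37, plus strand). PELO lies on the same strand within it, shares 499 exon bases and was at 20.6 to 27.2 FPKM in RD-ES and 12.9 to 14.5 FPKM in SK-N-MC, and its part in the ITGA1 value was not tested. ITGA2, the other tested collagen receptor chain, was at 0.851 to 1.49 FPKM over the 8 libraries and was not called in any comparison.

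All 3 tested chains of RGD-binding integrins were higher in SK-N-MC. ITGAV was at 13.8 and 15.5 FPKM in RD-ES control and 33.2 and 28.2 FPKM in SK-N-MC control (log2 difference 1.01, standard error 0.122, limma adjusted p = 8.3e-04). ITGA5 was at 36.0 and 38.2 FPKM against 54.9 and 65.1 FPKM (log2 difference 0.67, limma adjusted p = 0.018). ITGA2B, the αIIb chain known from platelets, was at 0.396 and 1.29 FPKM against 3.87 and 4.20 FPKM (log2 difference 1.49, limma adjusted p = 0.0098). Its platelet partner ITGB3 stayed at 0 to 0.287 FPKM over the 8 libraries, and of the 4 platelet markers GP9, PF4 and PPBP were listed at 0 in all libraries and GP1BA reached 0.0197 FPKM. ITGB5, the β5 chain that pairs with αV, was at 50.1 and 52.1 FPKM in RD-ES control and 90.8 and 96.7 FPKM in SK-N-MC control (log2 difference 0.86, standard error 0.0689, limma adjusted p = 1.7e-04).

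Laminin receptor chains were called in either direction. ITGA7 was at 6.48 and 7.15 FPKM in RD-ES control and 12.3 and 9.80 FPKM in SK-N-MC control (log2 difference 0.62, limma adjusted p = 0.032). ITGB4, which pairs with α6 in hemidesmosomes of epithelia, was at 4.30 and 2.87 FPKM against 1.17 and 1.31 FPKM (log2 difference -1.02, limma adjusted p = 0.015). ITGA6 and ITGA3 overlapped between the lines, at 7.80 and 4.77 against 5.30 and 7.00 FPKM and at 0.768 and 1.07 against 0.823 and 1.12 FPKM. ITGB1 also overlapped, at 84.6 and 90.2 against 74.0 and 85.4 FPKM (log2 difference -0.13, 95% interval -0.36 to 0.09), although median scaling brought it past the threshold as lower in SK-N-MC.

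Chains of leukocyte integrins were lower in SK-N-MC where they differed. ITGB2, the β2 chain of leukocyte integrins, was at 8.36 and 8.90 FPKM in RD-ES control and 2.01 and 2.51 FPKM in SK-N-MC control (log2 difference -1.57, standard error 0.135, limma adjusted p = 2.3e-04). ITGB2-AS1, which shares 303 exon bases with ITGB2 on the other strand, was at 43.4 and 44.9 FPKM in RD-ES control and 9.67 and 9.64 FPKM in SK-N-MC control. Reads of this pair cannot be told apart by strand. ITGAE, the αE chain of lymphocytes in epithelia, was at 36.6 and 31.4 FPKM against 25.7 and 25.3 FPKM (log2 difference -0.40, limma adjusted p = 0.015), while ITGB7, its only known partner, was at 0 to 1.06 FPKM in the 8 libraries. HASPIN lies on the other strand of ITGAE, shares 427 exon bases and was at 5.41 to 6.62 FPKM in RD-ES and 3.85 to 4.21 FPKM in SK-N-MC. ITGAL was at most 0.110 FPKM and ITGAX was listed at 0 throughout. Of the 7 leukocyte markers PTPRC alone had a mean of at least 1 FPKM and was higher in SK-N-MC, the line with less ITGB2, at 22.6 and 21.5 against 0.0173 and 0.0136 FPKM. CD3E and MS4A1 were listed at 0 in all libraries. The summed level of these markers was 0.645 to 2.02 FPKM in RD-ES and 19.9 to 22.8 FPKM in SK-N-MC, and their part in the integrin values was not tested.

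Of these, 7 members (LAMB1, LAMA5, LAMB3, ITGA1, ITGAV, ITGB2 and ITGB5) were called under each of the 12 alternatives. Leaving out RD-ES control replicate 1, RD-ES control replicate 2, SK-N-MC control replicate 1 or SK-N-MC control replicate 2 left 8, 10, 9 and 7 members. ITGA7 and LAMA2 lost their call without any one of these 4 libraries, ITGA5 kept it only without SK-N-MC control replicate 1, ITGAE and ITGB4 kept it only without RD-ES control replicate 2, and ITGA2B lost it only without SK-N-MC control replicate 2. When the lines were compared in their eKD2 libraries, 11 of the 13 were again called. ITGAE and ITGA7 were not, and ITGAM and LAMB2 were added.

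**Figure D2:**
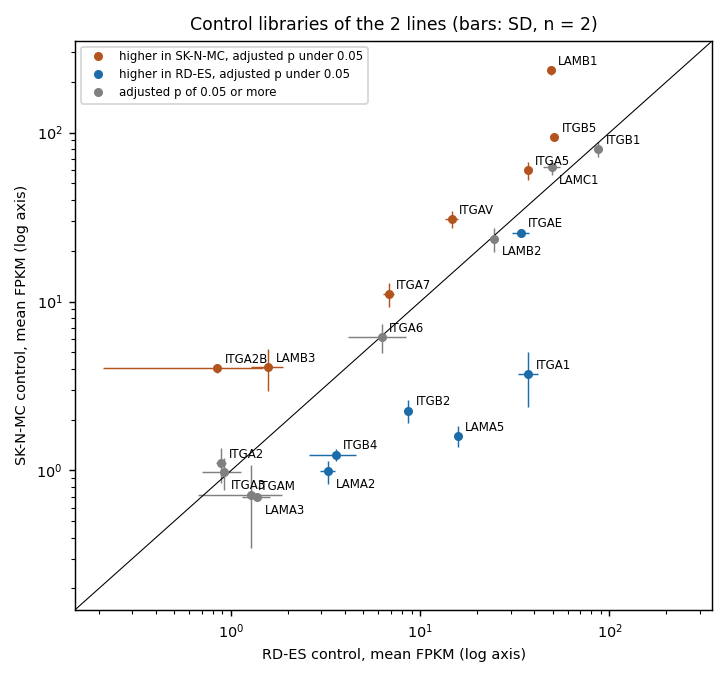
Mean FPKM of the 21 tested members in RD-ES control (x) against SK-N-MC control (y), both on log axes, with bars for the SD of 2 libraries and a line of equal level. Orange and blue points have an adjusted p under 0.05; LAMB1 lies far above the line and ITGA1 and LAMA5 far below it.

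Chain levels were also summed by class, as a description without a test. Laminin α chains summed to 20.8 ± 0.0442 FPKM (SD, n = 2) in RD-ES control and 3.70 ± 0.0438 FPKM in SK-N-MC control. Laminin β chains summed to 75.3 ± 0.289 and 262 ± 9.72 FPKM, and laminin γ chains to 50.3 ± 4.74 and 62.7 ± 5.42 FPKM. The ratio of summed β to summed α laminin was 3.63 and 3.64 in RD-ES control and 68.3 and 73.2 in SK-N-MC control. In the eKD2 libraries it was 3.40 and 2.65 in RD-ES and 56.1 and 34.9 in SK-N-MC, so the lines stood apart in all 8 libraries. Integrin α chains summed to 142 ± 6.62 and 146 ± 1.29 FPKM and integrin β chains to 151 ± 4.93 and 178 ± 12.4 FPKM in RD-ES and SK-N-MC control.

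The share of each chain in its class total also differed between the lines, given here as a description. ITGA1 made up 26.2% ± 1.93 (SD, n = 2) of the summed integrin α level in RD-ES control and 2.55% ± 0.946 in SK-N-MC control. ITGA5 made up 26.2% ± 2.32 and 41.2% ± 4.62, and ITGAV 10.4% ± 1.32 and 21.1% ± 2.62. LAMB1 formed 65.2% ± 0.900 of the laminin β level in RD-ES control and 89.4% ± 2.25 in SK-N-MC control. LAMA5 formed 76.0% ± 1.85 and 43.2% ± 6.70 of the laminin α level. LAMC1 was 98.5% or more of the laminin γ level in both. These shares are parts of a sum, so a rise of one chain lowers the others.

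**Figure D3:**
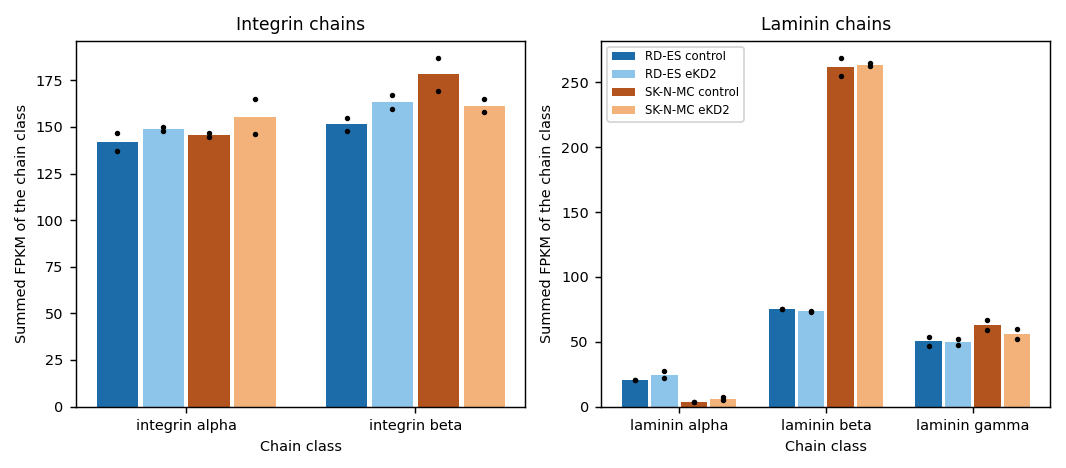
Summed FPKM of each chain class, with bars for the group mean and points for the 2 libraries of each group. Laminin α chains sum to 20.8 FPKM in RD-ES control and 3.70 FPKM in SK-N-MC control, and laminin β chains to 75.3 and 262 FPKM, whereas the integrin classes lie between 142 and 178 FPKM.

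Known combinations of chains were listed to see which had all their chains expressed at 1 FPKM or more. Of 24 integrin pairs 9 qualified in RD-ES control and 8 in SK-N-MC control. Both lines held α1β1, α5β1, α6β1, α7β1, αVβ1, αVβ5 and α6β4, while RD-ES added α4β1 and αMβ2 and SK-N-MC added α2β1. Of 14 laminin trimers, 6 qualified in RD-ES control (those of α2, α3 or α5 with β1 or β2 and γ1) and 2 in SK-N-MC control (α5β1γ1 and α5β2γ1). The lowest chain of the α5 trimers, LAMA5, was at 15.8 FPKM in RD-ES and at 1.60 FPKM in SK-N-MC control. Messages of all chains do not show that a protein complex is present.

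Enhancer knockdown was examined next. In RD-ES no member differed between eKD2 and control at an adjusted p under 0.05, against 0.343% of all genes, and the smallest adjusted p was 0.28 (limma). At an unadjusted p under 0.05 there were 7 of 21 members, 6 higher and 1 lower in eKD2. Over all tested genes the shares were 12.3%, 8.49% higher and 3.79% lower. Leaving out RD-ES control replicate 1, RD-ES control replicate 2, RD-ES eKD2 replicate 1 or RD-ES eKD2 replicate 2 reduced the 7 members to 3, 2, 2 and 4, and median scaling to 4. The median log2 fold change was 0.09 over the members and 0.03 over all genes.

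The 3 laminin-binding α chains were all among these 7. With only the RD-ES groups in the fit, none of the 3 had an unadjusted p under 0.05. Median scaling and quantile normalization each left out ITGA6. ITGA3 was at 0.768 and 1.07 FPKM in RD-ES control and 4.66 and 2.00 FPKM in eKD2 (log2 fold change 1.11, 95% interval 0.31 to 1.91, limma adjusted p = 0.28). Its higher value came from RD-ES eKD2 replicate 1, the shallowest library, without which the log2 fold change was 0.65. That library also held CDH1, an epithelial cadherin, at 3.50 FPKM, against 0.0369 to 0.168 FPKM in the other 7. The 5 epithelial markers together gave 45.1 and 37.5 FPKM with eKD2 against 43.7 and 43.9 FPKM in RD-ES control, almost wholly from KRT18, and KRT5 was listed at 0 in all libraries; their part in the ITGA3 value was not tested. ITGA6 was at 7.80 and 4.77 FPKM in control against 11.2 and 9.23 FPKM in eKD2 (log2 fold change 0.65, 95% interval 0.09 to 1.21), but without RD-ES control replicate 2 the log2 fold change was 0.35. ITGA7 was at 6.48 and 7.15 FPKM in control against 8.85 and 12.9 FPKM in eKD2 (log2 fold change 0.58, 95% interval 0.12 to 1.05), and without RD-ES eKD2 replicate 2 the log2 fold change was 0.33. None of these 3 chains overlapped between the groups. They already had an unadjusted p under 0.05, which makes overlap unlikely, and the share of all genes without overlap was not counted.

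The partner chains ITGAV and ITGB5 went in opposite directions in RD-ES. ITGAV was at 13.8 and 15.5 FPKM in control against 10.7 and 11.6 FPKM in eKD2 (log2 fold change -0.36, 95% interval -0.66 to -0.07, limma adjusted p = 0.32). ITGB5 was at 50.1 and 52.1 FPKM in control against 61.4 and 57.4 FPKM in eKD2 (log2 fold change 0.21, 95% interval 0.05 to 0.38, limma adjusted p = 0.31). Under median scaling ITGB5 no longer had an unadjusted p under 0.05, nor did ITGAV with a replicate block. The partner chains ITGAM and ITGB2, which form the αMβ2 receptor of myeloid cells, were both at higher values in eKD2. A pseudocount of 0.1 left out both at an unadjusted p under 0.05. Median scaling, quantile normalization and a replicate block each left out ITGB2. ITGAM was at 1.69 and 0.846 FPKM in control against 3.07 and 2.46 FPKM in eKD2 (log2 fold change 0.75, 95% interval 0.09 to 1.41, limma adjusted p = 0.35), and 0.48 without RD-ES control replicate 2. ITGB2 was at 8.36 and 8.90 FPKM in control against 11.3 and 11.6 FPKM in eKD2 (log2 fold change 0.37, 95% interval 0.05 to 0.70, limma adjusted p = 0.35). ITGB2-AS1, at 39.7 and 44.6 FPKM in eKD2, was not higher there. The SPI1 marker of myeloid cells was at 0.0640 FPKM or less in the RD-ES libraries and CD14 at 0.159 and 0.215 FPKM in control against 0.759 and 0.506 FPKM in eKD2; their part in the values was not tested.

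No laminin chain reached an unadjusted p under 0.05 in RD-ES. LAMB1 was the tightest, with a log2 fold change of 0.04 (95% interval -0.11 to 0.20), and LAMC1 had -0.05 (95% interval -0.34 to 0.24). LAMA5 was at 16.0 and 15.5 FPKM in control against 16.8 and 22.1 FPKM in eKD2, with a wide interval of -0.50 to 1.04 around a log2 fold change of 0.27. ITGB1 was at 84.6 and 90.2 FPKM in control against 89.9 and 88.3 FPKM in eKD2 (log2 fold change 0.03, 95% interval -0.20 to 0.26).

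In SK-N-MC no member passed the adjusted threshold either, against 0.323% of all genes, and the smallest adjusted p was 0.21 (limma). At an unadjusted p under 0.05 there were 4 of 21 members, 3 higher and 1 lower, against 13.0% of all genes, 5.71% higher and 7.29% lower. Without SK-N-MC control replicate 2 there was 1 and without SK-N-MC eKD2 replicate 2 there were 2. The median log2 fold change was -0.0031 over the members and -0.0049 over all genes.

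ITGB5 was the member with the smallest p. It was at 90.8 and 96.7 FPKM in control against 76.5 and 78.2 FPKM in eKD2 (log2 fold change -0.27, 95% interval -0.44 to -0.11, limma adjusted p = 0.21). It alone of the 4 kept an unadjusted p under 0.05 without each of the 4 SK-N-MC libraries in turn. ITGAV was at 33.2 and 28.2 FPKM in control against 35.6 and 41.4 FPKM in eKD2 (log2 fold change 0.32, 95% interval 0.02 to 0.62, limma adjusted p = 0.36), and 0.20 without SK-N-MC control replicate 2. The partners were again opposite, with each at the reverse of its direction in RD-ES.

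The laminin chains LAMB2 and LAMA5 were at higher values in SK-N-MC eKD2. LAMB2, the β2 chain of laminins at synapses and in the glomerulus, was at 26.1 and 20.8 FPKM in control against 32.6 and 28.9 FPKM in eKD2 (log2 fold change 0.38, 95% interval 0.08 to 0.68, limma adjusted p = 0.30). LAMA5 was at 1.44 and 1.76 FPKM in control against 2.27 and 5.44 FPKM in eKD2 (log2 fold change 0.82, 95% interval 0.05 to 1.59, limma adjusted p = 0.36). Without SK-N-MC control replicate 2 the log2 fold change of LAMB2 was 0.22, and without SK-N-MC eKD2 replicate 2 that of LAMA5 was 0.34. LAMB1 was at 224 and 245 FPKM in control against 224 and 231 FPKM in eKD2 (log2 fold change -0.04, 95% interval -0.20 to 0.12). For the laminin-binding chains ITGA3, ITGA6 and ITGA7 the eKD2 values were 2.17 and 1.53, 8.10 and 7.49, and 12.9 and 14.3 FPKM. These were above both control values for each chain, but no unadjusted p was under 0.05 in the main fit. The gaps were small for ITGA6 and ITGA7, whose higher control values were 7.00 and 12.3 FPKM. The share of all genes with such a separation was not counted. With only the SK-N-MC groups in the fit, ITGA3, LAMA3 and ITGB5 had an unadjusted p under 0.05 (limma). In that fit ITGAV, LAMA5 and LAMB2 did not.

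**Figure D4:**
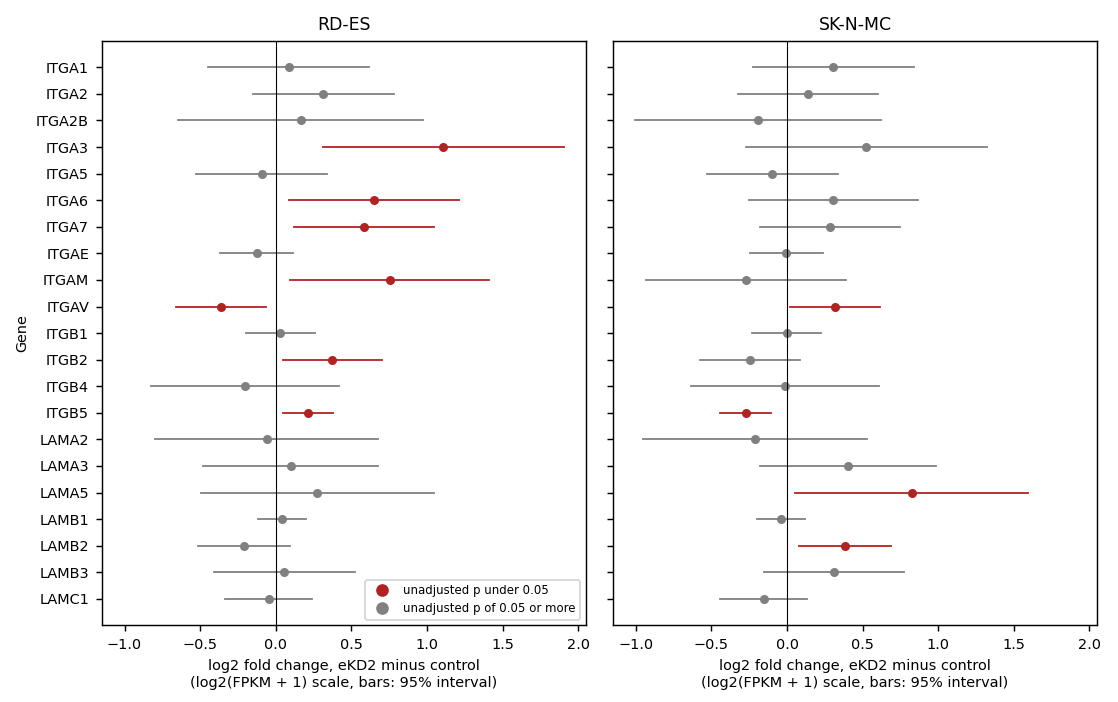
Log2 fold change (eKD2 minus control, log2(FPKM + 1) scale) of the 21 tested members in RD-ES (left) and SK-N-MC (right), with 95% intervals from limma. Red marks an unadjusted p under 0.05, for 7 members (RD-ES) and 4 members (SK-N-MC), none of which passed after adjustment over 15175 genes; ITGAV and ITGB5 lie on opposite sides of 0 in each line.

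The response to knockdown was compared between the lines as a difference of differences. No member passed at an adjusted p under 0.05, against 0.244% of all genes (limma, smallest adjusted p among the members 0.17). At an unadjusted p under 0.05 there were 5 of 21, against 13.5% of all genes. ITGB5, ITGAV, LAMB2, ITGB2 and ITGAM were these 5, of which ITGB5 and ITGAV stayed without each of the 8 libraries in turn. The responses of ITGA3, ITGA6 and ITGA7 were not shown to differ between the lines.

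At a group mean of at least 1 FPKM, 23 chains were expressed in RD-ES eKD2 and 20 in SK-N-MC eKD2. Shallow libraries measure chains close to this level with few reads. The additions over control were close to it, except ITGA3 in RD-ES eKD2 at a mean of 3.33 FPKM. With them, 11 of the 24 integrin pairs qualified in RD-ES eKD2 (α2β1 and α3β1 added) and 10 in SK-N-MC eKD2 (α3β1 and α11β1 added). Of the 14 laminin trimers, 4 qualified in SK-N-MC eKD2, where the α3 trimers with β1 or β2 and γ1 were added.

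Among the 17 members below a mean of 1 FPKM were ITGA4, ITGA8, ITGA9, ITGA10, ITGA11, ITGAD, ITGAL, ITGAX, ITGB3, ITGB6, ITGB7, ITGB8, LAMA1, LAMA4, LAMB4 and LAMC3. The main test left out these 17, and a few are given as values. Without the filter on low values, ITGA4, ITGA11, ITGB8, LAMA1 and LAMC3 were called in the line comparison (limma). ITGA4, the α4 chain that binds VCAM1 and fibronectin, was at 0.961 to 1.75 FPKM in RD-ES and 0.179 to 0.384 FPKM in SK-N-MC. ITGA11, a collagen receptor chain, was at 0 to 0.190 FPKM in RD-ES and 0.804 to 1.63 FPKM in SK-N-MC. ITGB8 was listed at 0 in the RD-ES libraries and at 0.578 to 0.791 FPKM in SK-N-MC. LAMA1 was listed at 0 in RD-ES and reached 0.142 FPKM in SK-N-MC. The ITGB7 value is uncertain, as ZNF740 on the other strand, with a mean of 65.0 FPKM, shares 42.3% of the ITGB7 exon bases.

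Ligands of integrins other than laminins gave the most values at an unadjusted p under 0.05 among the related lists. Of 14 tested matrix and cell surface ligands, 4 were higher and 3 lower in RD-ES eKD2, and 3 were higher and 3 lower in SK-N-MC eKD2, against 12.3% and 13.0% of all genes in either direction. None passed after adjustment (limma). VCAM1, a ligand of α4β1, was at 9.53 and 8.23 FPKM in RD-ES control and 15.8 and 12.9 FPKM in RD-ES eKD2 (log2 fold change 0.63, limma adjusted p = 0.18). In SK-N-MC it was at 15.7 and 15.8 FPKM in control against 11.6 and 10.1 FPKM in eKD2 (log2 fold change -0.50, limma adjusted p = 0.21). The log2 difference between these responses was -1.13 (standard error 0.181, limma adjusted p = 0.12). FN1, fibronectin, the main ligand of α5β1, was at 39.8 and 52.9 FPKM in RD-ES control and 72.3 and 67.5 FPKM in RD-ES eKD2 (log2 fold change 0.60, limma adjusted p = 0.24). Its log2 fold change in SK-N-MC was 0.39. For EMILIN1 the RD-ES log2 fold change was -0.45 and the SK-N-MC one -0.06. For TNC, tenascin-C, they were 0.69 and 0.75, and for CTGF -0.43 and -0.46, in the same order.

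At an unadjusted p under 0.05, adaptor proteins that tie integrins to actin had 3 of 30 tested members lower in RD-ES eKD2. In SK-N-MC eKD2, 4 of the 30 were lower. No adaptor was higher at that level in either line. With both directions counted, these numbers are near the background of 12.3% (RD-ES) and 13.0% (SK-N-MC). For lower values alone the background was 3.79% (RD-ES) and 7.29% (SK-N-MC), and the adaptors lay above it. Whether this excess goes beyond chance was not tested. None of the adaptors passed the adjusted threshold. The actin crosslinker FLNA was at 538 and 598 FPKM in RD-ES control and 413 and 482 FPKM in RD-ES eKD2 (log2 fold change -0.35, limma adjusted p = 0.34). In SK-N-MC it was at 392 and 404 FPKM in control against 280 and 341 FPKM in eKD2 (log2 fold change -0.36, limma adjusted p = 0.31). The others of smallest p were ACTN1 (-0.24) and FERMT1 (-0.26) in RD-ES and TNS3 (-0.55) and CRK (-0.25) in SK-N-MC, as log2 fold changes. FERMT1 and TNS3 were at low levels there. FERMT1 was at 1.70 and 1.71 FPKM in RD-ES control against 1.31 and 1.21 FPKM in eKD2. TNS3 was at 0.702 and 1.47 FPKM in SK-N-MC control against 0.397 and 0.411 FPKM in eKD2. Basement membrane partners had 2 of 10 lower in RD-ES, SPARC (-0.24) and NTN4 (-0.44), and 1 higher in SK-N-MC, SPARC (0.20). Other laminin receptors had 1 of 9 higher in RD-ES, MCAM (0.36), and in SK-N-MC 2 higher, RPSA (0.23) and SDC4 (0.21), and 1 lower, SDC2 (-0.38). Of 8 tetraspanins and partners, CD47 alone (0.25, SK-N-MC) was past an unadjusted p of 0.05.

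Between the control lines the kindlins, which activate integrins by binding β chains, differed in kind. FERMT3, the kindlin of blood cells, was at 22.0 and 26.1 FPKM in RD-ES and 1.57 and 1.77 FPKM in SK-N-MC control (log2 difference -3.23, limma adjusted p = 1.0e-04). FERMT1 was at 1.70 and 1.71 against 23.6 and 22.7 FPKM (log2 difference 3.16, limma adjusted p = 5.7e-06), and FERMT2 at 7.88 and 6.08 against 47.7 and 46.0 FPKM (log2 difference 2.59, limma adjusted p = 3.9e-04). ICAM1, a ligand of β2 integrins, was at 58.8 and 74.9 FPKM in RD-ES control and 0.176 and 0 FPKM in SK-N-MC control, and ICAM2 at 27.8 and 30.0 against 0.129 and 0.0690 FPKM. ITGB2, FERMT3, ICAM1 and ICAM2 were thus all higher in RD-ES, whereas the leukocyte marker PTPRC was higher in SK-N-MC. These genes were named for their size of difference after their values were seen. Of the lists, 12 of 30 adaptors, 10 of 14 ligands, 5 of 10 basement membrane partners, 2 of 9 other laminin receptors and 1 of 8 tetraspanins were higher in SK-N-MC, and 11, 2, 3, 4 and 2 lower, at an adjusted p under 0.05 (limma). Of all genes 31.4% were higher and 26.4% lower.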

How the data were processed

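Poly-A RNA was sequenced from 8 libraries (4 groups of 2). Per the paper's methods the authors aligned single-end reads with STAR to GRCh37 and assembled transcripts with cufflinks, and cuffnorm gave the FPKM table. These deposited FPKM levels were taken without rescaling. The counts behind the paper's own test were not analysed here, and no read totals come with the values. Library preparation was unstranded.

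From these values log2(FPKM + 1) was computed for 15175 genes, those averaging 1 FPKM or more across all 8 libraries. limma (3.58.1, R 4.3.3; lmFit, contrasts.fit, eBayes with trend) was run with the 4 groups in 1 fit, and p-values, all two-sided, were adjusted by Benjamini-Hochberg over all tested genes. The model was tested on simulated data, with log2 changes of at least 1 in size planted in genes above the filter level. Genes with a wide spread between libraries were not used for planting. The check required the median estimates to lie near the planted changes and set no condition on calls. Smaller changes, genes of wide spread and members near 1 FPKM were not covered by that test. Fold changes on this scale understate low genes. With 2 libraries a side the smallest two-sided p of an exact permutation is 0.333, so only limma p-values are given.

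The members and lists were chosen with earlier results of these data known. Values in every library are given for members with an adjusted p under 0.05 in any comparison or an unadjusted p under 0.05 for eKD2, and for the 6 integrin and 4 laminin genes highest in each control. From other lists up to 3 genes per line with the smallest p were named. Alternatives were a pseudocount of 0.1, no filter, median scaling, quantile normalization, no trend, a replicate block, only the groups compared, and each library left out. The line comparison in the eKD2 libraries was added after seeing the data. Replicate numbers did not pair the libraries. Gene positions come from GENCODE on GRCh37 and upstream sequences from RefSeq on GRCh38.p14. The values of 1 member are not reported here.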

Additional observations from a re-analysis of the deposited data

Results flagged for a closer look

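For 5 members the response to eKD2 differed between the lines at an unadjusted p under 0.05 (limma), and none did after adjustment over all genes. The values are log2 fold changes in SK-N-MC minus those in RD-ES. ITGB5 had -0.49 (limma adjusted p = 0.17), with higher values in both RD-ES eKD2 libraries and lower values in both SK-N-MC eKD2 libraries than in any control library of the same line. ITGAV had 0.68 (limma adjusted p = 0.23), with the opposite pattern. Both genes were picked by an unadjusted p from these same values, which makes such a pattern likely. The share of all genes with it was not counted. LAMB2 had 0.59 (limma adjusted p = 0.26), ITGB2 had -0.62 (limma adjusted p = 0.28) and ITGAM had -1.02 (limma adjusted p = 0.33).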

How the results depend on the processing

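No member was called for eKD2 in either line, or for the difference between lines, under any alternative, and no log2 fold change that had an unadjusted p under 0.05 in its comparison reversed. In the line comparison between the eKD2 libraries, 3 members that were not called between the controls changed sign: LAMB2 (-0.07 to 0.52, limma adjusted p = 0.013), ITGA3 (0.04 to -0.54) and ITGA2 (0.15 to -0.03). Of the values for single members under the alternatives, 335 kept their direction and side of the threshold and 24 lost their call, all in the line comparison. Many of the 335, among them all those for eKD2, were not called in the main fit and had no call to lose. Median scaling lowered the number of members at an unadjusted p under 0.05 in RD-ES from 7 to 4. Leaving out 1 library at a time gave 2 to 4 such members in RD-ES (main 7), 1 to 5 in SK-N-MC (main 4) and 3 to 6 for the difference between lines (main 5, and 3 without SK-N-MC eKD2 replicate 2). In the line comparison it gave 7 to 10 called members (main 13, 8 without RD-ES control replicate 1 and 7 without SK-N-MC control replicate 2). These fits have fewer libraries, and the lone sample of a group is assumed to vary like the other groups. Taking 5 FPKM as expressed lowered the chains in SK-N-MC control from 17 to 10 and in RD-ES control from 19 to 13.

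Replicate numbers did not pair the libraries, as deviations of same-numbered libraries correlated at 0.056 (RD-ES) and 0.027 (SK-N-MC). With the replicate block, 12 members were called in the line comparison (LAMA2 lost), and 5, 4 and 4 members had an unadjusted p under 0.05 for eKD2 in RD-ES, for eKD2 in SK-N-MC and for the difference. With 2 libraries a group and no read totals, small differences in genes near 1 FPKM were not detectable.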
